A study of Mus musculus with 13 samples.

Results

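The genes described are 5 of the 19937 genes measured in mouse melanocytes and in lesions that arise from them: the melanin enzymes Tyr, Tyrp1 and Dct, and Pmel, the protein of the melanosome's fibrous matrix, with its binding partner Mlana, a membrane protein. They were taken by name, not by their values, and each of the 5 was found on the array through 1 probe set that names that gene alone. Levels are given as log2 of the deposited intensity plus 1, and a difference of 1 on this scale is a doubling.

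Melanin is made inside melanosomes, lysosome-related organelles of pigment cells. Pmel is cut and assembles into fibrils within the early melanosome, and Mlana binds Pmel and takes part in its maturation. Tyr, a copper enzyme, oxidises tyrosine in the rate-limiting step. Dct, the dopachrome tautomerase, and Tyrp1, which in the mouse oxidises the product of Dct, act further along the path to brown-black eumelanin, which is laid down on the Pmel fibrils. The transcription factor Mitf activates all of these genes in melanocytes, in part through a promoter element called the M-box, and a full set of them marks a differentiated pigment cell.

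The samples were 13 whole-transcript Affymetrix arrays of in vivo mouse material in 6 groups. Melanocytes purified by flow cytometry came from mice with an altered Cdkn2a and wild-type Braf at day 19 (the control, called Cdkn2a only, 2 arrays), from Cdkn2a/Braf mice at day 19, which the labels place ahead of growth arrest (2 arrays), and from Cdkn2a/Braf mice at day 50, placed past it (2 arrays). The other 7 arrays were of tissue that had not been cultured. They held 2 melanomas of genotype Cdkn2a/Braf, 2 of genotype Cdkn2a/Braf/Lkb1, and 3 samples of Lkb1/Braf melanocytic proliferations, each a pool by its label. The Braf allele is V600E by the title of the series. It was carried by every group but the Cdkn2a only cells, and the Cdkn2a alteration by every group but the Lkb1/Braf proliferations. The sources used here do not name the Cre driver, the marker used for the sort or the age of the mice with lesions. Samples of a group are labelled as biological replicates.

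The genes described are themselves melanocyte markers, so their sum is no separate evidence of cell identity. Their summed intensity lay between 36948 and 40654 on the 4 day 19 arrays and between 21867 and 28693 on the 2 day 50 arrays. In tissue the sum was 2784 to 3196 in the proliferations, and in the melanomas it was only 226 to 330 (Cdkn2a/Braf) and 247 to 270 (Cdkn2a/Braf/Lkb1). Markers of other skin cells were present in several groups. Keratinocyte markers (10 genes) summed to 22120 to 23899 in the proliferations, 11748 to 15440 at day 50, 1808 to 3241 on the day 19 arrays and 586 to 7265 in the melanomas. Fibroblast markers (7 of 8 genes measured) summed to 12666 to 13591 in the proliferations, 8258 to 11714 in the melanomas, 3960 to 4700 at day 50 and 823 to 1044 at day 19. Macrophage markers (8 genes) summed to 3535 to 8410 in the melanomas, 4700 to 5122 in the proliferations and 337 to 1570 in sorted cells. In bulk samples such as these, fewer melanocytes and less of a transcript in each melanocyte cannot be told apart.

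**Figure D1:**
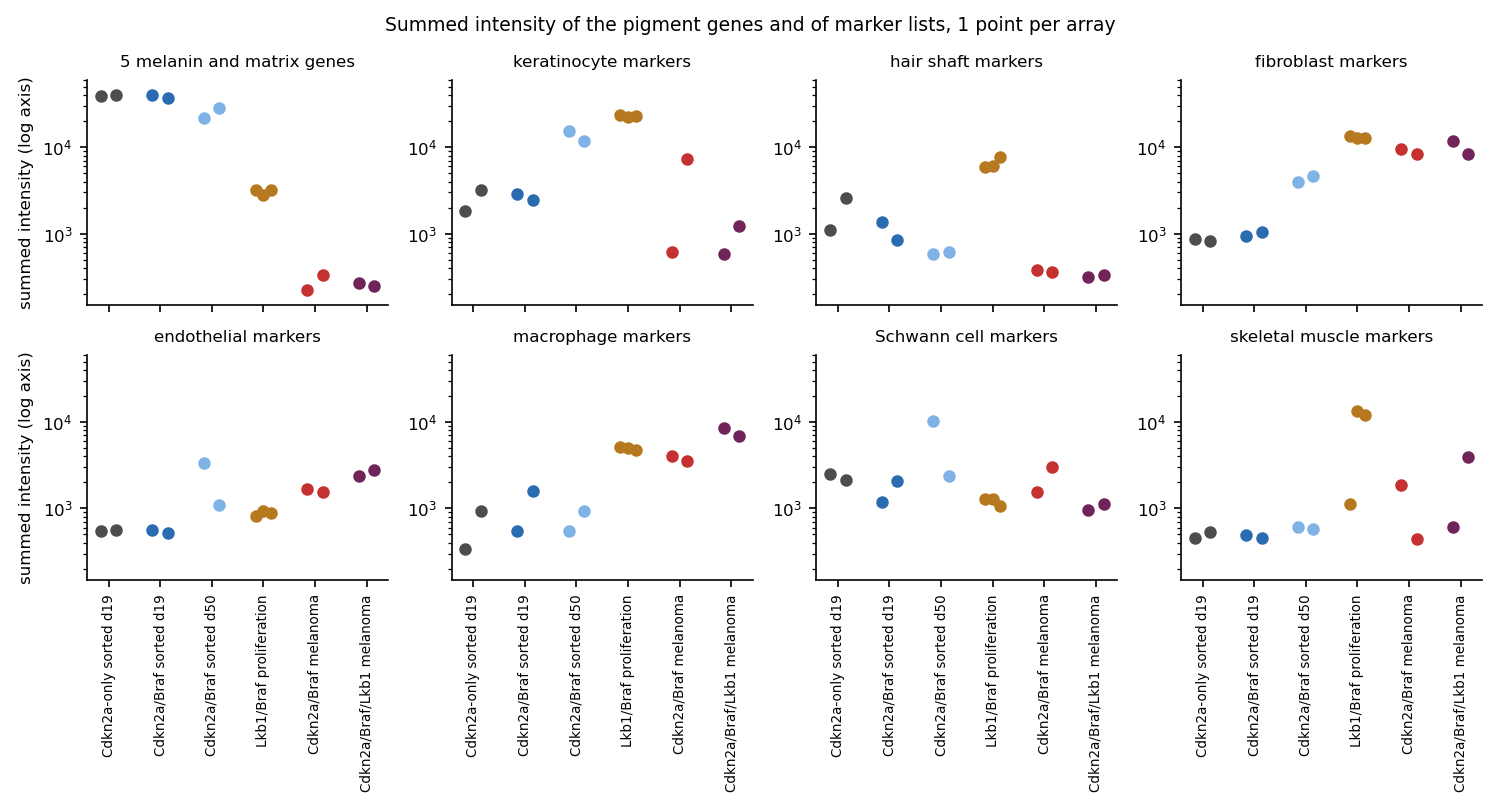
Summed intensity (log axis) on each of 13 arrays (points) for the 5 pigment genes and 7 lists of markers of other cell types, by group. The pigment sum falls from 36948 to 40654 on the day 19 arrays to 226 to 330 in both melanoma groups together, while keratinocyte markers are highest in the proliferations, at 22120 to 23899.

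Among the melanin enzymes, Tyr moved apart from Tyrp1 and Dct at day 50. Promoter sequences are shown for these 3 alone, because the set searched held none for Pmel and Mlana. Each is read on the strand of the gene, from 250 bases before to 50 bases after the annotated start, from RefSeq (GRCm38.p6). Capitals mark TCATGTGCT, the core of the M-box. Tyr lies at chr7:87493463-87493762 (minus strand), Tyrp1 at chr4:80833963-80834262 (plus strand) and Dct at chr14:118052197-118052496 (minus strand).
Tyr: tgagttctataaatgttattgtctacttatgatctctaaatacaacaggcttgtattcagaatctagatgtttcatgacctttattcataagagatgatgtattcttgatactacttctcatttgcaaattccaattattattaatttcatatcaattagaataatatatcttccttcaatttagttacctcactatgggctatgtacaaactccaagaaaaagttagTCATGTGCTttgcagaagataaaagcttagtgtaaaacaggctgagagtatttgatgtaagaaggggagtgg
Tyrp1: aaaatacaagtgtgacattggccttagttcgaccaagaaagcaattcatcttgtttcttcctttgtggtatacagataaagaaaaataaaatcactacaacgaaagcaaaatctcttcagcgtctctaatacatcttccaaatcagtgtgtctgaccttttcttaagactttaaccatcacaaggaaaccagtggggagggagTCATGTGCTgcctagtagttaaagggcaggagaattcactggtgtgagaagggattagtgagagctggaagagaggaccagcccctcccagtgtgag
Dct: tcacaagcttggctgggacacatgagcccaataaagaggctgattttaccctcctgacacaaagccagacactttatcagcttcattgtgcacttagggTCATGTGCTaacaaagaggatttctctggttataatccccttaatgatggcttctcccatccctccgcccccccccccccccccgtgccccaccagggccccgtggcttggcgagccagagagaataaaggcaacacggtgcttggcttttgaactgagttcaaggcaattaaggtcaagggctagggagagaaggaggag

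All 3 promoters held TCATGTGCT on the strand of the gene, with its first base at -22 in Tyr, -47 in Tyrp1 and -151 in Dct, counted from the start of transcription. The same 9 letters, searched on both strands, were present in 134 of 32851 promoters of equal length (0.408%). They contain CATGTG, the E-box, which was in 14.2% of those promoters, and in Dct a second CATGTG lay on the opposite strand at -232 to -227. The longer form AGTCATGTGCT was taken from the Tyr sequence, so its match in Tyr was set beforehand. It occurred also in Tyrp1 and not in Dct, and in 7 promoters in all (0.0213%). ACAAAG, a core that Sox proteins bind, was present in Dct at -192 to -187 and at -141 to -136, on the opposite strand of Tyrp1 at -190 to -185, not in the Tyr window, and in 18.7% of all promoters. Of 38 other pigment pathway genes with a promoter sequence, 0 held TCATGTGCT, 8 held CATGTG and 12 held ACAAAG. These are matches of letters and not measured binding.

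**Figure D2:**
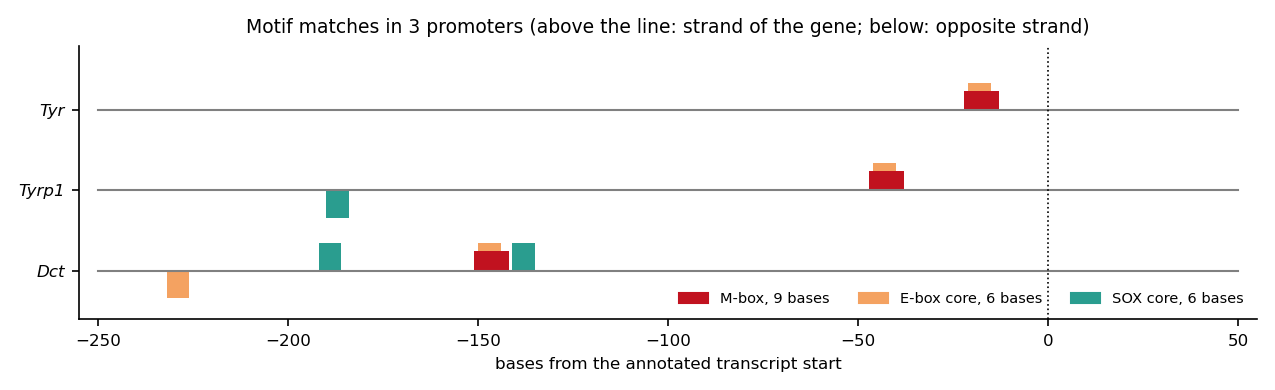
Positions of motif matches in the promoters of Tyr, Tyrp1 and Dct, in bases from the annotated transcript start (dotted line), with matches on the strand of the gene above each line and on the opposite strand below. TCATGTGCT (M-box core, 9 bases) starts at -22, -47 and -151, and contains the 6-base E-box.

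Tyr, the first enzyme of the pathway, was high in day 19 cells, intermediate and discordant at day 50, low in the proliferations and lowest in the melanomas. Its level was 11.94 and 11.96 in Cdkn2a only cells and 11.92 and 11.66 in Cdkn2a/Braf cells at day 19. At day 50 replicate 1 was at 7.40 and replicate 2 at 9.90, a gap of 2.50 between replicates that was exceeded by 1.21% of all genes in that pair. Both day 50 arrays were below every day 19 array and above every tissue array. The proliferations were at 6.57, 6.18 and 6.67, the Cdkn2a/Braf melanomas at 4.45 and 4.34, and the Cdkn2a/Braf/Lkb1 melanomas at 4.33 and 3.99. The 3 tissue groups did not overlap with each other, although the nearest arrays of the melanoma groups almost met.

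On the deposited scale Tyrp1 stayed near its day 19 level at day 50 and was far lower in all tissue. It was at 13.12 and 13.26 in Cdkn2a only cells, 13.21 and 13.15 in Cdkn2a/Braf cells at day 19, and 12.71 and 12.92 at day 50. The proliferations were at 8.31, 8.39 and 8.48, the Cdkn2a/Braf melanomas at 5.08 and 5.77, and the Cdkn2a/Braf/Lkb1 melanomas at 4.63 and 4.77. The day 19 genotypes overlapped, and every other pair of groups was separate. With arrays scaled to a common interquartile range, Tyrp1 in Cdkn2a/Braf cells was higher at day 50 than at day 19 by 1.49.

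Dct followed the same course among sorted cells but held a higher level in the proliferations. It was at 13.22 and 13.29 in Cdkn2a only cells, 13.33 and 13.25 in Cdkn2a/Braf cells at day 19, and 12.69 and 13.05 at day 50. The proliferations were at 10.19, 9.98 and 10.19, the Cdkn2a/Braf melanomas at 5.002 and 5.95, and the Cdkn2a/Braf/Lkb1 melanomas at 5.19 and 4.78. The day 19 genotypes overlapped, as did the melanoma genotypes, and Cdkn2a/Braf melanoma replicates differed by 0.94, a gap exceeded by 2.86% of genes.

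Pmel, the fibril protein, was at 12.75 and 12.69 in Cdkn2a only cells, 12.66 and 12.45 in Cdkn2a/Braf cells at day 19, and 11.27 and 11.90 at day 50. In tissue it was at 8.01, 8.11 and 8.37 in the proliferations, 5.73 and 6.17 in the Cdkn2a/Braf melanomas, and 6.08 and 6.22 in the Cdkn2a/Braf/Lkb1 melanomas. Both day 50 arrays were below all 4 day 19 arrays, and only the melanoma genotypes overlapped.

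Mlana, its binding partner, was at 13.22 and 13.31 in Cdkn2a only cells, 13.24 and 13.19 in Cdkn2a/Braf cells at day 19, and 12.53 and 12.90 at day 50. The proliferations were at 10.41, 10.09 and 10.24, the Cdkn2a/Braf melanomas at 6.49 and 6.98, and the Cdkn2a/Braf/Lkb1 melanomas at 6.98 and 6.74. As with Dct, the day 19 genotypes overlapped and the melanoma genotypes overlapped, with all other groups apart.

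**Figure D3:**
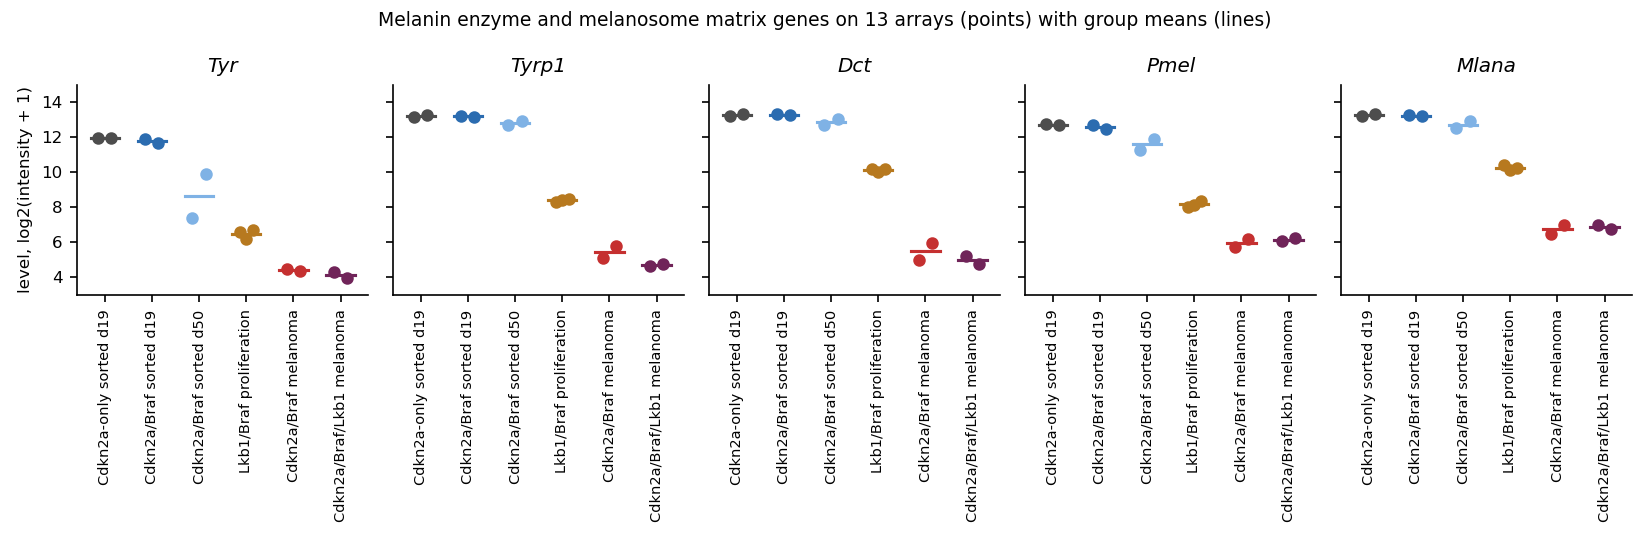
Level (log2 of intensity plus 1) of Tyr, Tyrp1, Dct, Pmel and Mlana on each of 13 arrays (points), with group means (lines). All 5 genes step down from day 19 cells through day 50 cells and proliferations to the melanomas; Tyr at day 50 is split, at 7.40 and 9.90. With arrays brought to one interquartile range, Tyrp1, Dct, Pmel and Mlana are higher at day 50 than at day 19.

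These genes had some of the widest ranges over the groups on the array. The range of the 6 group means was 8.49 for Tyrp1, and 0 of the 19937 genes had a wider one. It was 8.30 for Dct (1 gene wider), 7.80 for Tyr (2 wider), 6.77 for Pmel (7 wider) and 6.53 for Mlana (12 wider), against a median of 0.81 over all genes. The order was the same for all 5, with the day 19 groups first, then day 50, the proliferations and the melanomas. Within it, neighbours that did not pass the test of their difference were the day 19 genotypes and the melanoma genotypes for all 5 genes. Cdkn2a/Braf cells at day 19 and day 50 did not pass it for Tyrp1, Dct and Mlana. For Dct the Cdkn2a only cells lay between these 2 groups, and their difference from day 50 was not tested. With a common interquartile range, Cdkn2a/Braf cells at day 19 and day 50 change places for all but Tyr.

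At day 19, cells with and without the Braf allele had similar group means of the melanin and matrix genes. None of the 5 passed the test (limma, Benjamini-Hochberg adjusted p = 1 for each), in a comparison that called 0.291% of all genes. The difference of Cdkn2a/Braf from Cdkn2a only cells was -0.01 for Tyrp1 (95% interval -0.46 to 0.43), 0.03 for Dct (-0.57 to 0.63) and -0.05 for Mlana (-0.48 to 0.38). For Pmel it was -0.16 (-0.66 to 0.33) and for Tyr -0.16 (-1.47 to 1.14). The interval for Tyr is wide because the fit shares 1 estimate of spread over all groups, and that gene's spread comes mostly from the day 50 pair. Leaving out one day 50 array in the comparison of day 50 with day 19 brought its standard error (SE) from 0.59 to 0.23.

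Between day 19 and day 50, when Cdkn2a/Braf melanocytes pass from growth to arrest by their labels, Tyr and Pmel fell on the deposited scale, Pmel with a reversed sign under another scale described below, and the other 3 genes did not pass the test. Tyr fell by 3.14 (SE 0.59, limma adjusted p = 0.0048), an 8.82-fold lower value, and Pmel fell by 0.97 (SE 0.22, limma adjusted p = 0.0129), 1.96-fold. Both calls were lost when only the sorted arrays were fitted (limma adjusted p = 0.0723 for Tyr and 0.0687 for Pmel), with the same differences. The difference was -0.50 for Mlana (SE 0.19, limma adjusted p = 0.0794), -0.42 for Dct and -0.36 for Tyrp1. Both arrays at day 50 were below both at day 19 for all 5 genes, which was true of 24.8% of all genes. The test called 2 of the 5, against 25.6% of all genes in either direction and 14.5% lower, so a count of this size is near the background. In size only Tyr stood out, since 0.266% of genes differed by more, against 13% for Pmel, 35% for Mlana, 44.4% for Dct and 53% for Tyrp1.

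The drop in Tyr was seen on both day 50 arrays but differed in size. Without day 50 replicate 1 it was -1.89, and without replicate 2 it was -4.39. Each of these values rests on 1 day 50 array, with no spread within that group. The same arrays differed in other cell markers. Replicate 1 had a summed endothelial signal of 3364 and a Schwann cell signal of 10139 (4 of 7 genes measured), against 1091 and 2343 in replicate 2, and day 19 arrays were at 523 to 567 and 1194 to 2511. At day 50, 6 of 7 endothelial, 5 of 7 fibroblast, 2 of 4 Schwann cell, 2 of 4 adipocyte, 2 of 10 keratinocyte and 1 of 8 macrophage markers rose, as did 11.1% of all genes. In the same comparison 2 of 7 hair shaft, 1 fibroblast and 1 macrophage marker fell, against 14.5% of all genes. Their part in the pigment values was not tested. Day 50 also differed from day 19 in age, which cannot be told apart from arrest.

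Direction at day 50 depended on the scale for all but Tyr, but it changed under a single alternative. For each of Tyrp1, Dct, Pmel and Mlana, 1 of 14 alternatives reversed the sign, the common median and interquartile range. Centring arrays on their medians and quantile normalization, which gives all arrays the same distribution, kept the lower sign. The interquartile range of log2 levels over genes was 1.93 and 1.94 at day 50 against 2.54 and 2.58 in the Cdkn2a/Braf cells at day 19. With every array scaled to a common median and interquartile range, Tyr was still lower (-2.33, limma adjusted p = 0.039), while Tyrp1 was higher by 1.49 (limma adjusted p = 0.000956), Dct by 1.45 (0.00559) and Mlana by 1.34 (0.00235), and Pmel differed by 0.56 (0.128). The median of all genes moved from 0.17 as deposited to 0.07 with arrays centred on their medians and to -0.05 with the common range. What held on every scale tried was that Tyr was lower at day 50 relative to the other 4.

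**Figure D4:**
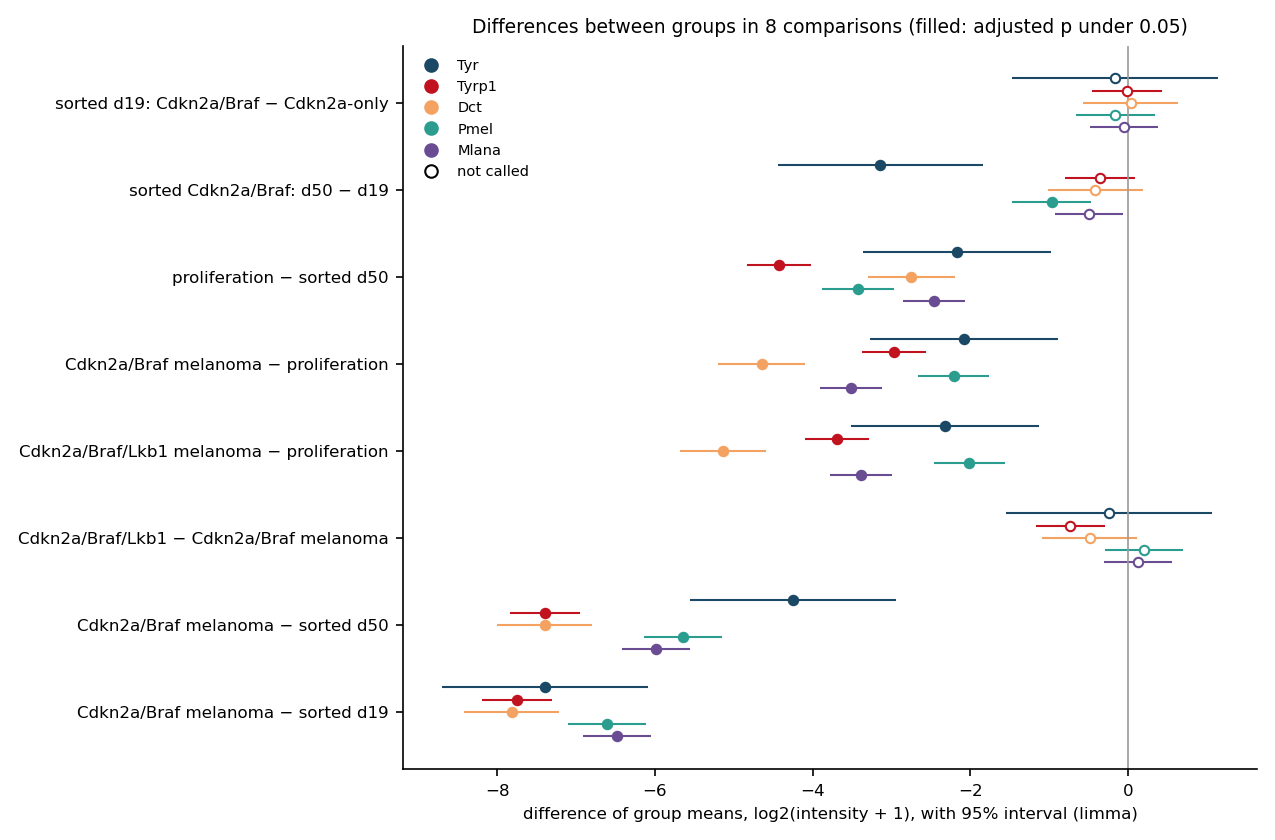
Difference of group means (log2 of intensity plus 1) with 95% interval (limma) for the 5 genes in 8 comparisons; filled points have an adjusted p under 0.05. No gene is called between genotypes at day 19 or between melanoma genotypes, Tyr (-3.14) and Pmel (-0.97) are lower at day 50 than at day 19, and all 5 are lower in the other comparisons. With a common interquartile range, Tyrp1, Dct, Pmel and Mlana turn to higher at day 50 than at day 19.

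All 5 genes were lower in the Lkb1/Braf proliferations than in day 50 sorted cells. Tyrp1 was lower by -4.43 (SE 0.18, limma adjusted p = 1.82e-06) and Pmel by -3.42 (SE 0.20), while Dct (-2.75), Mlana (-2.47) and Tyr (-2.17) differed by less. The arrays of the groups did not overlap for any of the 5, as was so, in the lower direction, for 29.3% of genes. All 5 passed the test, as 9.2% of all genes did in that direction. The Tyr difference ranged from -3.42 without day 50 replicate 1 to -0.92 without replicate 2. The call for Tyr (limma adjusted p = 0.0202) was lost when only these groups were fitted (0.123), with the replicate block (0.0639) and without proliferation replicate 2 (0.0653). In the proliferations 4 of 4 adipocyte, 5 of 7 hair shaft, 5 of 8 macrophage and 4 of 7 fibroblast markers were higher, as were 9.11% of all genes. So were 2 of 10 keratinocyte, 2 of 4 T cell and 2 of 5 skeletal muscle markers. In the same samples 3 of 4 Schwann cell markers and 1 of 7 endothelial markers were lower. Their part was not tested. This comparison sets tissue against sorted cells of another genotype, so the share of melanocytes, the genotype and the lesion cannot be told apart.

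Melanomas had less of every melanin and matrix transcript than the proliferations, which are tissue too. Against the proliferations, the Cdkn2a/Braf melanomas were lower for Dct by -4.65 (SE 0.25, limma adjusted p = 4.47e-06), a 25.1-fold lower value, and for Mlana by -3.52 (SE 0.18), 11.4-fold. Tyrp1 (-2.97, 7.81-fold), Pmel (-2.21, 4.64-fold) and Tyr (-2.08, 4.23-fold) followed. Of the 5 genes 5 were called lower, as were 8.88% of all genes, and Dct ranked 12th of 19937 by size. The call for Tyr (limma adjusted p = 0.0208) was the least firm, and was lost under 7 of 15 alternatives, with adjusted p from 0.057 to 0.107 in these.

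In the Cdkn2a/Braf/Lkb1 melanomas, which share the Lkb1 genotype label with the proliferations, all 5 were lower again, where 20.6% of all genes were called lower. Dct differed by -5.14 (SE 0.25, limma adjusted p = 2.27e-06), Tyrp1 by -3.70 and Mlana by -3.39. Tyr differed by -2.32 (limma adjusted p = 0.00753) and Pmel by -2.01. Both comparisons share the proliferation arrays and are not independent. The melanomas also differed in composition: 8 of 10 keratinocyte, 7 of 7 hair shaft and 4 of 4 adipocyte markers fell in Cdkn2a/Braf melanoma against the proliferations. There 2 of 7 endothelial, 2 of 4 Schwann cell and 1 of 7 fibroblast markers rose, as did 12.6% of all genes. Of the rest, 1 of 8 macrophage, 2 of 4 T cell and 2 of 5 skeletal muscle markers fell, where 8.88% of all genes did. In Cdkn2a/Braf/Lkb1 melanoma 10 of 10 keratinocyte, 7 of 7 hair shaft and 4 of 4 adipocyte markers fell. So did 1 of 7 fibroblast, 2 of 4 T cell and 2 of 5 skeletal muscle markers. In the same melanomas 4 of 7 fibroblast, 3 of 7 endothelial and 3 of 8 macrophage markers rose, where 20% of all genes did. Of T cell and of Schwann cell markers, 1 of 4 rose in each list. Their part was not tested. Cdkn2a status differs between these groups too.

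Between the melanoma genotypes, which differ by Lkb1, none of the 5 passed the test, in a comparison that called 2.56% of genes. The difference of Cdkn2a/Braf/Lkb1 from Cdkn2a/Braf melanoma was -0.73 for Tyrp1 (95% interval -1.17 to -0.29, limma adjusted p = 0.085), -0.49 for Dct (-1.09 to 0.11) and -0.24 for Tyr (-1.54 to 1.06). It was 0.20 for Pmel (-0.30 to 0.69) and 0.12 for Mlana (-0.31 to 0.55). Replicate 1 of Cdkn2a/Braf melanoma bears on this: without it, with 1 array left in that group, Tyrp1 was lower by -1.08 and Dct by -0.96. Without replicate 2 instead, the differences were -0.39 for Tyrp1 and -0.0177 for Dct. The keratinocyte sum was 621 in replicate 1 and 7265 in replicate 2. The macrophage sum was 6921 to 8410 in Cdkn2a/Braf/Lkb1 and 3535 to 4062 in Cdkn2a/Braf melanoma. In the former, 1 of 7 fibroblast, 1 of 8 macrophage and 1 of 4 T cell markers were called higher. There 1 of 4 Schwann cell markers was called lower. The part of these markers was not tested.

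Melanoma tissue and sorted melanocytes lay furthest apart. From Cdkn2a/Braf cells at day 19 to Cdkn2a/Braf melanoma, Dct differed by -7.81, Tyrp1 by -7.75, Tyr by -7.39 and Pmel by -6.61, in that order the 4 differences of greatest size among 19937 genes, and Mlana, at -6.48, ranked 7th. From day 50 cells the differences were -7.40 for Dct, -7.39 for Tyrp1, -5.98 for Mlana, -5.64 for Pmel and -4.25 for Tyr. All 5 were called lower in both comparisons, as were 5.46% of genes against day 19 and 16.9% against day 50. In Cdkn2a/Braf melanoma 7 of 7 fibroblast, 4 of 7 endothelial and 3 of 8 macrophage markers were higher than at day 19, where 7.17% of all genes were. So were 1 of 4 T cell and 1 of 4 Schwann cell markers, and 4 of 7 hair shaft markers were lower. Against day 50, 7 of 8 macrophage, 3 of 7 fibroblast, 1 of 4 T cell and 1 of 4 Schwann cell markers were higher, where 15.5% of all genes were. Lower there were 3 of 10 keratinocyte, 3 of 7 hair shaft and 2 of 4 Schwann cell markers. So were 1 of 7 endothelial, 1 of 4 T cell and 1 of 4 adipocyte markers. Sorted cells and tissue differ in melanocyte content, and this cannot be told apart from the lesion.

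Genes that act with the 5 were followed in 6 lists with 45 genes measured. At day 50 against day 19 the melanosome transporters and copper supply had 6 of 9 lower, where 14.5% of all genes were, with a list median of -2.53 against 0.17 for all genes. They were Slc7a11, the cystine importer (-4.61), Oca2 (-3.02) and Slc45a2 (-2.98), both needed for melanosome pH, Trpm1 (-2.73), the exchanger Slc24a5 (-2.53) and Atp7a, the pump that loads copper onto Tyr (-1.49). The same 6 counted as lower with arrays at a common interquartile range. Mcoln3, an endolysosomal cation channel, differed by -0.81 (SE 0.28, limma adjusted p = 0.0594), and by 0.42 with that common range.

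Sorting and receptor genes were lower at day 50 in part, in a comparison that called 14.5% of all genes lower (16.5% with a common interquartile range, and 10.4% higher). Of 16 genes for cargo sorting to melanosomes, 9 fell (7 with a common interquartile range; list median -0.64), led by Rab38, a GTPase that delivers Tyr and Tyrp1, at -3.67. All 3 receptors fell (1 with a common interquartile range; list median -1.55), among them Mc1r, the receptor for melanocortin, at -3.03. Of the transport genes, Rab27a, Mlph and Myo5a, which tether melanosomes to actin, fell by 1.10, 1.09 and 1.09, and 0 of 4 were called with a common interquartile range, under which Rab27a (0.06) and Myo5a (0.07) changed sign. Among 6 partners of Pmel, 3 fell: Gpr143 (-3.86), Gpnmb (-1.91) and Bace2, a protease that cuts Pmel (-1.23). With a common interquartile range only Gpr143 of these was called lower (-4.01), and Cd63 (1.58) and Apoe (1.54), which help sort Pmel onto internal vesicles, were called higher, from uncalled values of -0.14 and 0.45 on the deposited scale.

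Of 7 lineage regulators 4 were lower at day 50, against 14.5% of all genes: Irf4 (-3.18), which with Mitf activates Tyr, Lef1 (-2.75), Tfap2a (-1.17) and Mitf itself (-0.52, SE 0.17, limma adjusted p = 0.0468). Mitf turned to 0.51 (limma adjusted p = 0.0383) with a common interquartile range. Tfap2a lost its call there (-0.48, limma adjusted p = 0.229), while Irf4 and Lef1 were still called lower. Sox10 differed by -0.08 and Pax3 by -0.42, neither called, and these turned to 0.52 and 0.80, again uncalled, on that scale. On the deposited scale 0 genes of the 6 lists were higher at day 50, as were 11.1% of all genes. None of the 45 genes was called between genotypes at day 19 or between the melanoma genotypes, where 0.291% and 2.56% of all genes were called.

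Against the proliferations the wider pathway was not uniformly lower in Cdkn2a/Braf melanoma, in contrast to the counts for the 5 genes, a contrast that was not tested. Slc45a2 (-1.14), Slc24a5 (-1.48), Mcoln3 (-1.58), Rab38 (-1.53), Rab27a (-1.21), Mreg (-1.62), Gpnmb (-1.68), Mc1r (-0.91), Lef1 (-1.03) and Mitf (-0.55, SE 0.15, limma adjusted p = 0.029) fell. The comparison called 8.88% of all genes lower and 12.6% higher. Pax3, an early lineage regulator, rose by 2.04 (SE 0.27, limma adjusted p = 0.000685). Atp7a (0.76), Furin (0.45) and 4 of 16 sorting genes rose too. With a common interquartile range Furin (0.32) and 2 of those 4 were no longer called, while Cd63 (-0.92) and Apoe (-1.87) were called lower, Cd63 from an uncalled 0.15 on the deposited scale. Sox10 differed by 0.32 and Kit, the receptor of stem cell factor, by 0.20, with no call. The list medians were between -0.67 (transport) and 0.27 (sorting), against -2.97 for the 5 genes and -0.02 for all genes. In Cdkn2a/Braf/Lkb1 melanoma against the proliferations, Pax3 was higher by 1.37, while Mitf (-1.06) and Sox10 (-1.07) were lower.

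**Figure D5:**
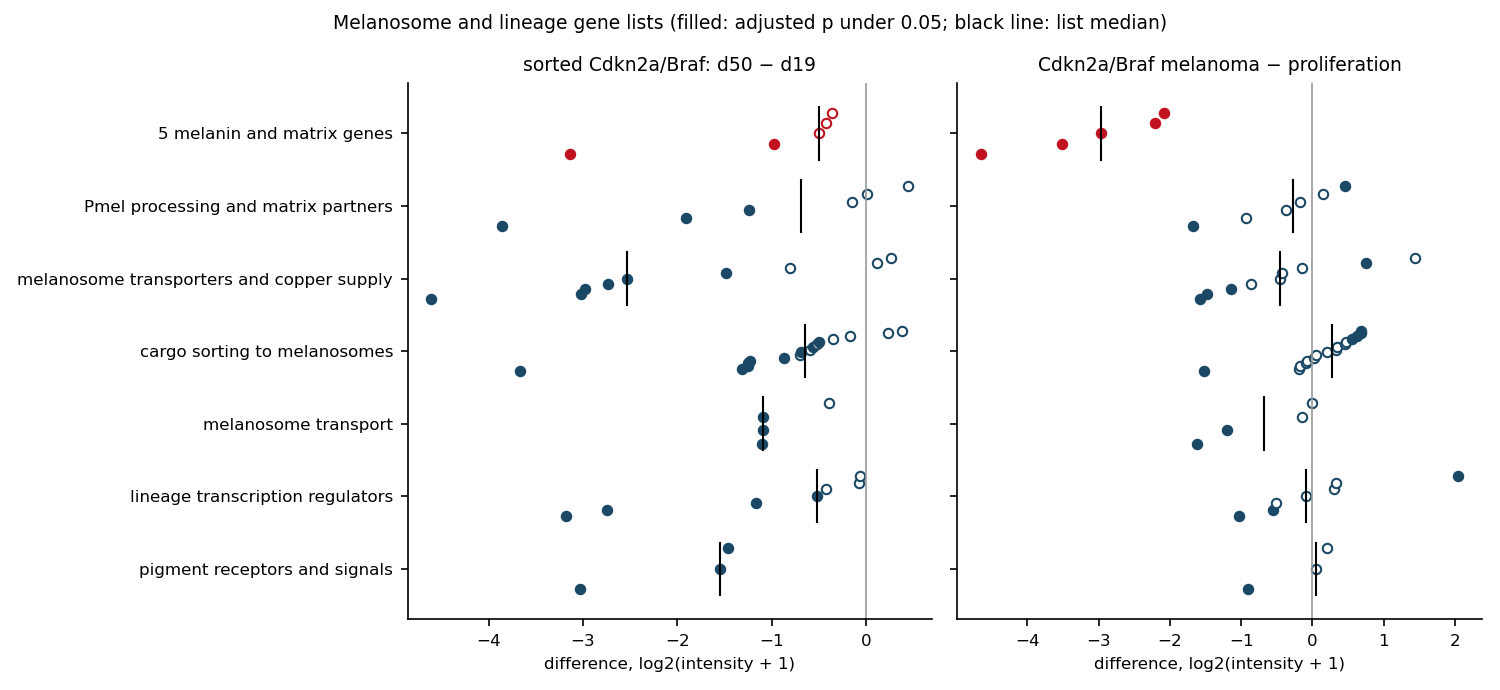
Difference of each gene (log2 of intensity plus 1) in the 5 pigment genes and 6 pathway lists, at day 50 against day 19 (left) and in Cdkn2a/Braf melanoma against proliferations (right); filled points have an adjusted p under 0.05 and black lines are list medians. On the left no called gene is higher; arrays brought to one interquartile range turn the called Pmel, Mitf, Rab27a, Myo5a and Vps33a and several uncalled genes, Tyrp1, Dct and Mlana among them, upward there. On the right the 5 genes have a median of -2.97 and Pax3 stands at 2.04, and no called gene changes sign on that scale.

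Within an array the 5 genes changed unequally, which is described here without a test. The difference of Tyr from Tyrp1 was -1.24 ± 0.09 (SD, n = 2) in Cdkn2a only and -1.39 ± 0.14 (SD, n = 2) in Cdkn2a/Braf cells at day 19, and at day 50 it was -5.32 and -3.02. It was -1.92 ± 0.26 (SD, n = 3) in the proliferations. Against Dct, Tyr was also low in the proliferations, with a mean of -3.65, near the day 50 mean of -4.22. Its means against Mlana were -3.77 and -4.07 in these groups, and against Pmel -1.69 and -2.94. In Cdkn2a/Braf cells at day 19 the means were -1.50 against Dct, -1.42 against Mlana and -0.77 against Pmel. Tyrp1 kept its distance from Dct in sorted cells (means -0.11, -0.07 and -0.05) and in Cdkn2a/Braf melanoma (-0.05 ± 0.18, SD, n = 2), but in the proliferations it was -1.73 ± 0.15 (SD, n = 3). All 3 proliferation arrays were below every other array in this difference. Pmel to Mlana gave -2.09 ± 0.28 (SD, n = 3) there, against means between -1.13 and -0.55 elsewhere. Dct to Mlana stayed between -0.22 and 0.15 on every sorted and proliferation array and was -1.26 ± 0.32 (SD, n = 2) in Cdkn2a/Braf and -1.88 ± 0.12 (SD, n = 2) in Cdkn2a/Braf/Lkb1 melanoma. Each of these values depends on the background of 2 probe sets, most of all where both are dim.

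The genes with the most similar course over the 6 groups were found by root mean square distance between group means, each gene centred on its own mean. Outside the 5 genes, the nearest to Pmel was Mcoln3, at 0.23, then Gpm6a, a neuronal membrane glycoprotein, at 0.54. Mcoln3 was also the nearest of these other genes to Tyrp1 (0.85), Dct (1.15) and Mlana (0.72). Tyr was closest to the transporters Slc45a2 (0.55) and Slc24a5 (0.74), which were also low at day 50. Among the 5 themselves the closest were Pmel and Mlana (0.52) and Tyrp1 and Dct (0.61), and the furthest Tyr and Dct (1.33). These distances rest on 6 group means that share the contrast of sorted cells with tissue.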

How the data were processed

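Total RNA purified with Qiagen RNeasy was amplified with NuGEN Ovation V2 and labelled with Encore reagents, per the labels' protocols. RMA, of unstated version, made the values, per the submitters' processing notes. What was deposited is a linear intensity (3.35 to 17698.4, array medians 68.3 to 80.5), although RMA gives log2 values, and the sources used here do not say how the authors got from one to the other. No detection calls were used, so low intensities include background and differences of dim genes are understated. Precision is limited by how few arrays each group has.

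Of 34760 probe sets, 21640 named 1 gene in the platform table (1321 named several, 11799 were not listed), and 21553 of these matched by Entrez identifier. This gave 19937 genes. For the 954 genes with several probe sets the one with the highest mean was used. Every column belonged to a sample.

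The tests used limma 3.58.1 (R 4.3.3) on log2(intensity + 1) with 6 group means over 13 arrays (7 residual and 3.08 prior degrees of freedom), two-sided, with Benjamini-Hochberg adjustment over 19937 genes at 0.05, in 8 comparisons. The fit was tested on simulated data. The 5 genes, the lists and the alternatives were chosen with earlier results of these data known. Genes named are the 5, the members of 6 pathway lists, and the genes of smallest distance to each of the 5. Promoters were taken from RefSeq and searched on both strands. Tables and plots used Python 3.11.15, pandas 2.3.3, numpy 2.4.6 and matplotlib 3.10.9. Alternatives were other scalings, the mean of probe sets, a filter on dim genes (log2 above 6 on at least 2 arrays), other moderation, array weights, fewer arrays, a pseudocount of 16, a replicate block and leaving out each array.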

Additional observations from a re-analysis of the deposited data

How the results depend on the processing

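Over the 5 genes and 8 comparisons, 580 differences were recomputed under alternatives, of which 550 kept their direction and side of the threshold, 14 lost the call, 3 gained it and 13 changed sign. At day 50 against day 19, 4 of the 5 genes were called with a common interquartile range, where Tyrp1 (1.49), Dct (1.45), Pmel (0.56) and Mlana (1.34) turned positive, and 0 in a fit of sorted arrays alone, which leaves fewer arrays (Tyr adjusted p = 0.0723, Pmel 0.0687). In this comparison, leaving out 1 array leaves 1 in its group, so only a difference is given: without day 50 replicate 2 Mlana was at -0.68. Calls from such fits, counted among the 580, hold no spread within that group. Between melanoma genotypes, without Cdkn2a/Braf replicate 1 Pmel was at -0.021 and Mlana at -0.12 (up to 0.42 and 0.37 without replicate 2). With a common interquartile range Tyr was at 0.0415 between these genotypes. Signs also changed among the uncalled differences at day 19: Dct was at -0.0336 with median centring, -0.13 with a common interquartile range, and between -0.009 and 0.0697 with 1 array left out, and Tyrp1 between -0.0871 and 0.0579. Tyr in Cdkn2a/Braf melanoma against day 50 lost its call when only those groups were fitted (adjusted p = 0.107), and in the proliferations against day 50 in that fit (0.123), with the replicate block (0.0639) and without proliferation replicate 2 (0.0653). The cause was not tested.

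Deviations of same-numbered replicates were little correlated over genes (from -0.117 to 0.06), and the main fit treats the numbers as names only. Where both groups have 2 arrays, both replicates give the same correlation. Whether same-numbered samples share an origin was not tested. With the replicate block 2 genes of 5 were called at day 50 against day 19, 0 at day 19 and between melanoma genotypes, 4 in Cdkn2a/Braf melanoma and 5 in Cdkn2a/Braf/Lkb1 melanoma against the proliferations, and 4 in the proliferations against day 50. A block with the numbers of one melanoma group exchanged, added after seeing the data, called 0 of the 5 and 333 genes in all, against 510 without a block.

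Counts over all genes moved more: 5095 at day 50 against day 19 (1502 to 5835), 58 between genotypes at day 19 (1 to 193), 510 between melanoma genotypes (135 to 794), 4277 in Cdkn2a/Braf melanoma (2215 to 6054) and 8090 in Cdkn2a/Braf/Lkb1 melanoma (4343 to 9453) against proliferations, 6462 (506 to 6776) and 2518 (1377 to 3774) in Cdkn2a/Braf melanoma against day 50 and day 19, and 3652 in proliferations against day 50 (1165 to 5655). Of the genes called, the lower share moved by scaling from 56.6% to between 52.2% and 75.9% at day 50 against day 19. Between melanoma genotypes it moved from 28.6% to between 22.8% and 40.8%. In the 2 melanoma groups against proliferations it moved from 41.4% to between 31.4% and 54.4% and from 50.7% to between 34.5% and 52.6%. It moved from 43.2% to as much as 56% in melanoma against day 19, and from 50.2% to as much as 67.1% in proliferations against day 50.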
